A study of Drosophila melanogaster with 12 samples.

Results

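Wide R-loop domains of the chromosome arms were long stretches of S9.6 enrichment, joined over 4 libraries, in which both replicates of control untreated S2 cells had a peak. To find them, the 4 peak lists obtained without RNH treatment were merged, joining peaks that share 1 bp or more. A domain was a merged region of 3000 bp or more on 2L, 2R, 3L, 3R or X, with a peak in both lists of untreated cells. The rule found 228 domains among 12155 merged regions in all, of which 7688 were on these 5 arms and 1798 were called in both untreated lists. The other 1570 regions called in both untreated lists are referred to as narrower regions. Domains were thus chosen by the positions and widths of peaks without RNH treatment. Widths, peak numbers, scores and covered length in these lists are therefore given as descriptions, with no test. The lists obtained after RNH treatment took no part in the choice.

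S2, a *Drosophila* cell line of embryonic origin, was either left untreated (labelled WT) or depleted of linker histone dH1 during an 8-day culture with 100 μg of dsRNA, added at day 1 and again at days 4 and 7. The control cells received no dsRNA. Hybrids were pulled down with 4 μg of S9.6 from DNA fragments of between 500 bp and 1000 bp that had been digested with RNase A. Of each DNA, a portion had first been incubated with 6 U of bacterial RNase H (RNH). The 2 conditions had 2 biological replicates each, and every S9.6 library was set against the input of its replicate.

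R-loops are formed when a transcript pairs with its template strand and displaces the other DNA strand. S9.6 is an antibody against DNA:RNA hybrids, and RNase H removes their RNA strand. A peak that is lost upon RNH treatment is therefore ascribed to a hybrid. dH1 is the somatic linker histone of *Drosophila*, which binds the nucleosome and the linker DNA and is needed to keep heterochromatin silent. Repeated sequences, such as transposable elements, are present at many sites of the arms.

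The lists were not alike in form. Without RNH treatment, untreated cells gave 2622 and 2418 peaks on the arms, with median widths of 1294 bp and 1266.5 bp, and dH1-depleted replicate 2 gave 3287 with a median of 1316 bp. In contrast, dH1-depleted replicate 1 gave 5449 peaks with a median of 221 bp. After RNH treatment, 98 and 74 peaks were called on the arms in untreated cells, 61 in dH1-depleted replicate 1 and 375 in its replicate 2. Of these, 83, 68, 51 and 148, respectively, overlapped a region merged from the lists without RNH treatment. The others were called only after RNH treatment, and so are not peaks that persisted. Both dH1-depleted lists therefore stand apart from the rest in 1 treatment each, and every result below is given per library. The lists hold no read numbers, so the depth is unknown.

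Domains were between 3004 bp and 15015 bp wide, with a median of 4338.5 bp, and covered 1121297 bp in total. The narrower regions had a median of 1464 bp. Widths were not spread evenly, with 56 domains under 3500 bp, 4 in the bin that begins at 7000 bp, 17 in that at 7500 bp and 15 in that at 8000 bp (bins of 500 bp). No domain fell between 8500 bp and 9000 bp, and 3 were wider. Domains were found on each arm, 52 on 2L, 48 on 2R, 53 on 3L, 37 on 3R and 38 on X. Their share of the regions called in both untreated lists was lowest on 3R, with 9.18%, and highest on X, with 15.6%.

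The widest domain lay on 3L, from 2046726 to 2061740 (dm3, as all positions here), and was 15015 bp long. Peaks covered 100% and 99.4% of it in untreated cells and 96.5% in dH1-depleted replicate 2, but only 4.33% in dH1-depleted replicate 1. No peak was called in it after RNH treatment. The next widest, on 3L from 5184035 to 5193443, was 9409 bp long and held the most narrow peaks, with 9 in dH1-depleted replicate 1. It too had no peak after RNH treatment. The third, on 3R from 26899625 to 26908867, was 9243 bp long and differed from both, since it had a peak in each of the 4 lists after RNH treatment.

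At the width minimum, the domains just inside were all on 3L and started at 4263290, 5026363 and 4250785, with widths of 3004 bp, 3008 bp and 3019 bp. Just outside were regions of 2995 bp on 3L, 2994 bp on 2L and 2988 bp on X. Each of the 3 just inside had a single narrow peak of dH1-depleted replicate 1, against none, none and 1 in those just outside. The minimum therefore separates regions of almost the same width. Another 106 regions on the arms were at least 3000 bp wide but did not meet the rest of the rule. Of these, 63 had a peak in 1 of the untreated lists, and 43 had none in either, all 43 of them with a peak of dH1-depleted replicate 2.

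Most domains were found in every list without RNH treatment. Besides the peaks of untreated cells, which the rule requires, dH1-depleted replicate 1 had a peak in 84.6% of domains, where 62% of all arm regions and 49% of those called in both untreated lists had one. For dH1-depleted replicate 2 the share was 91.7%, where 42.3% and 74.5% had one, respectively. The dH1-depleted lists also entered the merging that set the width, and a wider region is hit more easily. These shares are therefore partly set by the rule. All 4 lists had a peak in 181 domains, dH1-depleted replicate 1 alone among the dH1-depleted lists in 12 and dH1-depleted replicate 2 alone in 28. Neither dH1-depleted list had a peak in 7 domains.

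The width of a domain was often, but not always, the width of a single peak. In 132 domains, both untreated lists held a peak of at least 3000 bp. In 49 neither did, and in 32 of these a peak of dH1-depleted replicate 2 reached the minimum. The remaining 17 were wide only because shorter peaks of different lists were joined. The median of the widest peak in a domain was 3806.5 bp and 3591 bp in untreated replicates 1 and 2, 4010 bp in dH1-depleted replicate 2 and 432 bp in dH1-depleted replicate 1.

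Domains ranked high within each list. The score of a peak is 10 times the negative log10 of its p-value. Since scores were not normalized between libraries, each was turned into its percentile within its list, and a domain was given the highest percentile of its peaks. The median percentile of domains was 84.7 and 82.6 for the untreated replicates, 78.0 for dH1-depleted replicate 1 and 91.4 for its replicate 2. For narrower regions it was 51.9, 48.0, 55.5 and 60.0, respectively. The median was highest in dH1-depleted replicate 2 for domains and for narrower regions alike. Of domains with a peak there, 54.5% were at or above the 90th percentile, against 39.5% and 32.0% in untreated cells and 24.9% in dH1-depleted replicate 1. For narrower regions the shares were 7.88%, 4.39%, 3.18% and 3.49% in the same order. The lists differ in length and in the form of their peaks, so percentiles of different lists are not levels on 1 scale.

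The rank was not high throughout. Percentiles ranged from 2.14 to 100.0 in untreated replicate 1 and from 0.486 to 98.5 in dH1-depleted replicate 1, so that single domains were among the weakest peaks of a list. Across the 228 domains, which share the lists and their inputs, percentiles of both untreated replicates followed each other (Spearman's rho of 0.79), while those of both dH1-depleted replicates did so less closely (0.40 over the 181 domains with a peak in each). Rank and width were weakly related in untreated cells (rho of 0.22 and 0.21) and in dH1-depleted replicate 2 (0.24 over 209 domains), and more closely in dH1-depleted replicate 1 (0.54 over 193 domains). These correlations are descriptions across regions, which are not replicates. Wider domains held more peaks of dH1-depleted replicate 1 (rho of 0.56 over 228 domains), so their highest percentile was taken from more values. The part of this in the value of 0.54 was not tested.

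**Figure D1:**
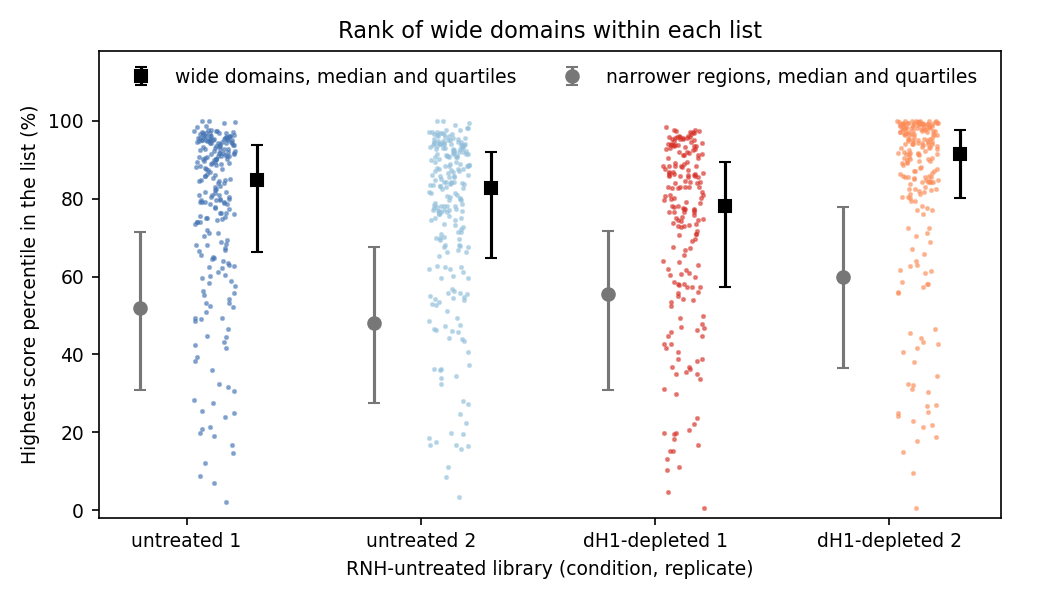
Percentile of the highest score within its list (vertical axis, percent) for each wide domain with a peak (coloured points, spread sideways) in the 4 libraries without RNH treatment, with medians and quartiles of wide domains (squares) and of narrower regions (circles). The median of wide domains lies between 78.0 and 91.4 and that of narrower regions between 48.0 and 60.0.

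Some domains stood high in all lists. On 2R, from 2234076 to 2239591, the percentile was 98.3 and 97.2 in untreated replicates 1 and 2 and 98.5 and 97.0 in their dH1-depleted counterparts. On X, from 2683158 to 2687652, it was 100.0 in untreated replicates 1 and 2 and in dH1-depleted replicate 2, while the other dH1-depleted list had it at 93.8. Other domains stood high in part of the lists only. The widest domain of 2L, from 7976362 to 7984456, was at 36.1 and 8.59 in untreated cells, but at 95.2 and 87.0 in dH1-depleted replicates 1 and 2. On X, from 21594976 to 21602575, the order was the other way around, with 84.0 and 71.4 in untreated cells, 69.2 in dH1-depleted replicate 1 and 26.7 in its replicate 2.

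A continuous domain of 3 lists was often a series of narrow peaks in dH1-depleted replicate 1. This list held 2 or more peaks in 130 domains, 57.0% of all, whereas 4.76% of all arm regions and 13.7% of those called in both untreated lists had 2 or more of its peaks. The corresponding share was 11.0% and 13.6% in untreated replicates 1 and 2 and 7.46% in dH1-depleted replicate 2. In 93 domains, dH1-depleted replicate 1 had 2 or more peaks while the other 3 lists had 1 peak each. With peaks of score 100 and above only, domains with 2 or more narrow peaks were 28.9% of those found. A list of narrow peaks gives more peaks in a wide region by its form, and the part of this in the splitting was not tested.

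In total, 536 narrow peaks of dH1-depleted replicate 1 lay in domains, 0.478 per kb, respect to 0.325 per kb in narrower regions. The order was opposite for untreated replicate 1, with 0.227 and 0.627 per kb, and the other 2 lists were like it. For the untreated lists this order follows from the rule. It requires a peak of both in every region, so shorter regions hold more peaks per kb. Of the domains, 35 had no narrow peak, 63 had 1, 45 had 2, 28 had 3, 17 had 4, 18 had 5 and 16 had 6. Of the rest, 4 had 7, 1 had 8 and 1 had 9. Narrow peaks in domains had a median width of 413 bp, wider than the 221 bp of all arm peaks of the list. The gap between neighbours had a median of 388 bp. From the outer edge of the first narrow peak to that of the last, a domain with 2 or more was spanned over a median of 71.7% of its length.

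The number of narrow peaks grew with width (Spearman's rho of 0.56 over 228 domains, a description). Of the 91 domains under 4000 bp, 33.0% had 2 or more. The share was 55.6% of the 63 domains that were wider but under 5000 bp, 80% of the 35 wider still but under 7000 bp and 94.9% of the 39 domains of 7000 bp or more. The length covered by narrow peaks grew as well, from 12.7% and 16.5% to 30.2% and 53.1%. The last value came from domains between 7000 bp and 9000 bp, 36 in number, of which narrow peaks covered 58.0%. The 3 widest domains went the other way, with 11.8%.

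**Figure D2:**
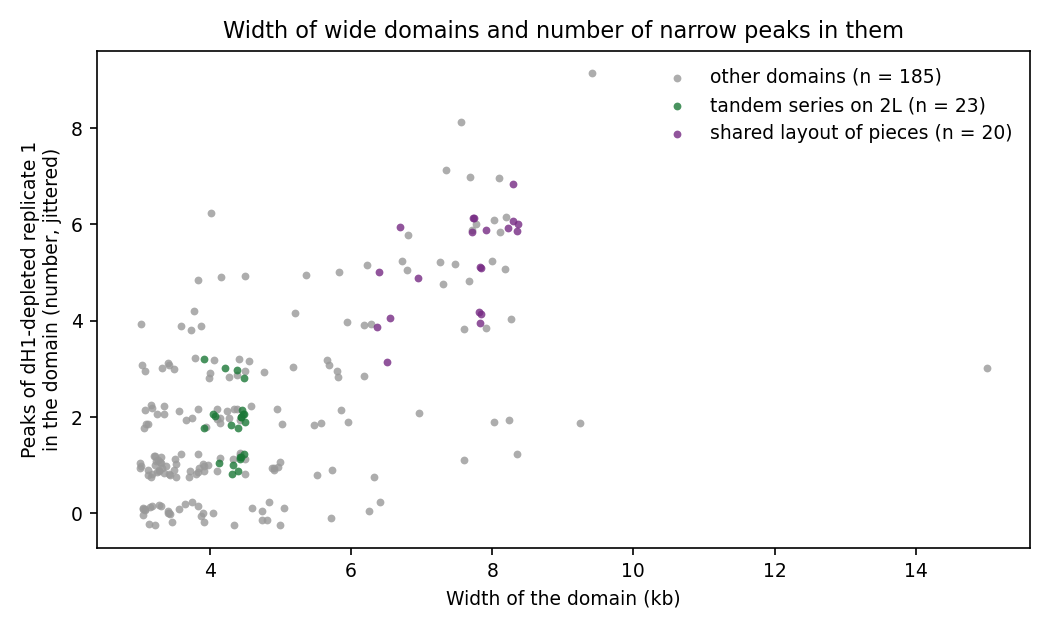
Width of each of the 228 wide domains (horizontal axis, kb) and number of peaks of dH1-depleted replicate 1 in it (vertical axis, points spread slightly up and down), with the tandem series on 2L in green and domains of shared layout in purple. Domains of 7000 bp or more hold a median of 5 narrow peaks and those under 4000 bp a median of 1.

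The narrow peaks were rare at the edges of domains, which are the outermost ends of the merged peaks. A list of narrow peaks seldom reaches these ends by its form, so the values are a description. In the outer 5% of the length at either end, peaks of dH1-depleted replicate 1 covered a mean of 3.55% and 0.728%, against 30.8% between 15% and 20% of the length. The same end bins were covered to 65.2% and 68.5% by untreated replicate 1, and to 57.3% and 60.2% by untreated replicate 2. Peaks of dH1-depleted replicate 2 covered 73.0% and 71.7% of them. The distance from the start of a domain to its first narrow peak had a median of 646 bp, and that from the last one to its end a median of 807 bp.

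Several of the widest domains had their narrow peaks at the same distances. After the values were seen, the 85 domains with 3 or more narrow peaks were compared pairwise, asking for widths within 500 bp and for narrow peaks that share at least 75% of the length that either domain has covered, with shifts of up to 150 bp and in both orientations. Single linkage and other minimums were also looked at. With complete linkage, 20 domains fell into 5 groups, all of them among the 56 domains of 6000 bp or more. A minimum of 70% gave 22 domains and one of 85% gave 13. No test was applied, since the groups were built on these values. Narrow peaks covered from 63.5% to 76.2% of the length in the 5 groups. They covered 53.1% in all domains of 7000 bp or more and 30.2% in all from 5000 bp to under 7000 bp. In domains from 4000 bp to under 5000 bp they covered 16.5%. A high shared length is reached more easily at high coverage, and the part of this in the groups was not tested.

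The largest group had 7 domains, and these lay on all 5 arms. They started at 8594126 and 16153458 on 2L, 3149389 on 2R, 7786504 on 3L, 6167093 on 3R and 9692280 and 11527167 on X. They were from 7819 bp to 8296 bp wide, with 4 to 6 narrow peaks, which shared from 88.2% to 97.0% of their covered length between pairs. Their lowest percentile in untreated cells was 83.2. The second group had 4 domains from 8228 bp to 8369 bp wide on 2R, 3L and X, of which the one at 1505734 on 3L matched in mirrored orientation. The other 3 groups had 3 domains each. Their widths were between 6368 bp and 6506 bp in the third group and between 6552 bp and 6953 bp in the fourth, both on 3R and X. The fifth, on 2L and 2R, had widths between 7714 bp and 7741 bp. Domains that share reads at repeated sequences are not independent of each other, since a read was counted at each site where it aligned. The sequence under these domains was not analysed here.

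**Figure D3:**
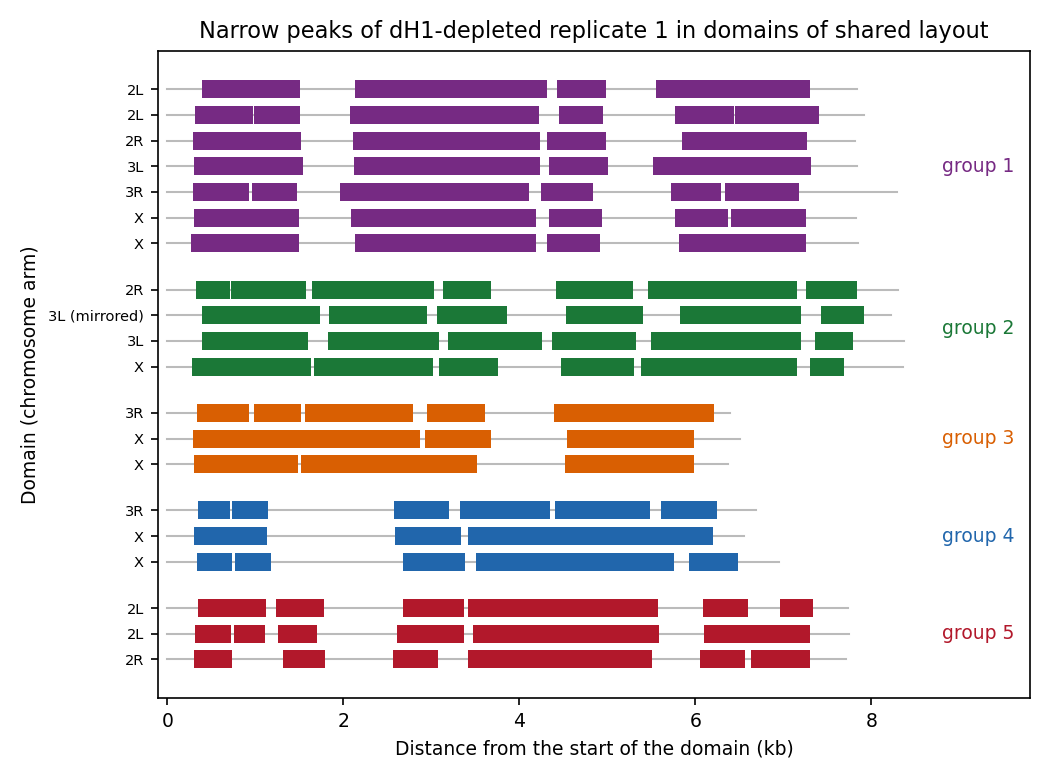
Narrow peaks of dH1-depleted replicate 1 (coloured blocks) along the 20 domains of shared layout (grey lines, 1 domain per row, named by arm and coloured by group), against the distance from the start of the domain (kb). The 7 domains of group 1 lie on all 5 arms and have blocks at nearly the same distances, and the domain marked as mirrored is drawn reversed.

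Next, loss of peaks upon RNH treatment was examined. In untreated replicate 1, a peak after RNH treatment was found in 38 domains (16.7%, Wilson 95% interval from 12.4% to 22.0%), respect to 1.25% of all arm regions and 0.955% of narrower regions. In untreated replicate 2 there were 27 domains (11.8%, from 8.27% to 16.7%), respect to 0.976% of all arm regions and 1.02% of narrower ones. In dH1-depleted replicate 1 there were 16 (7.02%, from 4.37% to 11.1%), respect to 0.911% and 0.892%, and in dH1-depleted replicate 2 there were 35 (15.4%, from 11.2% to 20.6%), respect to 2.21% and 2.23%. Among the regions called in both untreated lists, domains included, the shares were 2.95%, 2.39%, 1.67% and 3.89% in the same order. Thus, most domains had no peak after RNH treatment in any given library, while the share with one was above that of narrower regions in all 4. Not every region had a peak of the same replicate before treatment. Among those that had, a peak was found after RNH treatment in 16 of 193 domains (8.29%) and 1.60% of 688 narrower regions in dH1-depleted replicate 1, and in 33 of 209 domains (15.8%) and 2.57% of 1130 narrower regions in dH1-depleted replicate 2. The intervals cover counting error only, and any domains that share reads are counted separately.

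A longer region is hit more easily by a peak, so the covered length was compared. Without RNH treatment, peaks covered 90.5% and 87.0% of the length of domains in both untreated libraries, 28.4% in dH1-depleted replicate 1 and 86.1% in its replicate 2. After RNH treatment they covered 13.6%, 9.11%, 7.54% and 9.03%. For dH1-depleted replicate 1 this compares lists of different form, as its peaks in domains had a median width of 413 bp without and 5384 bp after RNH treatment. In all 16 domains with a peak after RNH treatment, this library covered more length than without it. For narrower regions, the values after RNH treatment were 0.809%, 0.911%, 0.757% and 1.77%. Domains were above narrower regions in 4 of 4 libraries, by 8.75 ± 2.74 percentage points (mean ± SD, n = 4, exact sign-flip test over libraries, 2-sided, p = 0.13, the smallest that 4 libraries allow). The difference was 8.24 percentage points when only narrower regions of 1500 bp or more were used. Domains also had a higher median percentile than narrower regions in each list without RNH treatment. The part of this in the difference was not tested. The 4 libraries include both conditions, and the 2 RNH-treated libraries of a condition are its replicates.

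**Figure D4:**
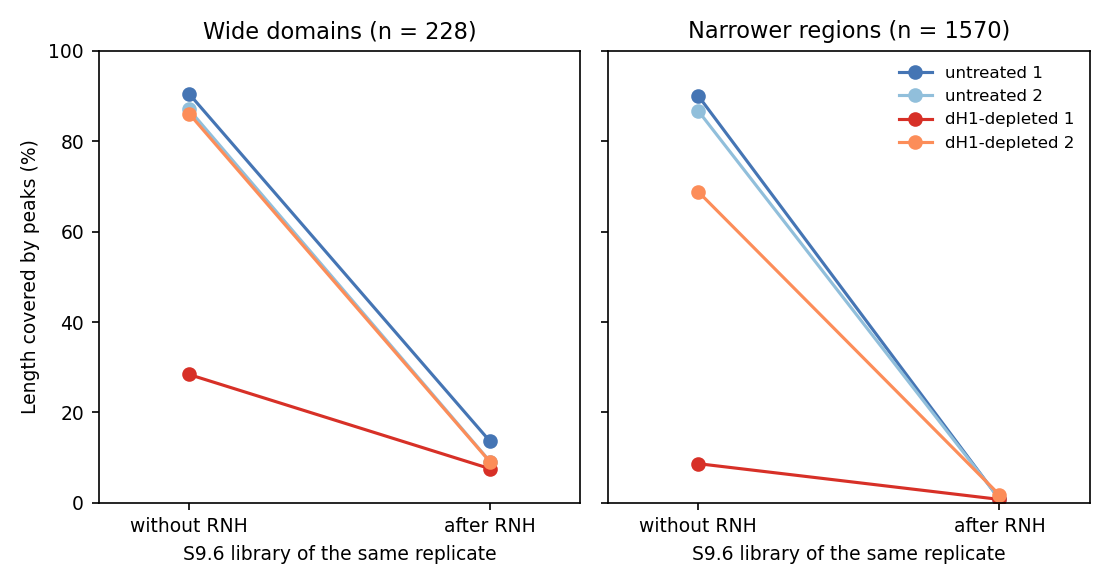
Length covered by peaks (vertical axis, percent) without and after RNH treatment in each of the 4 pairs of libraries (coloured lines), for the 228 wide domains (left) and the 1570 narrower regions (right). After RNH treatment, wide domains lie between 7.54% and 13.6% and narrower regions between 0.757% and 1.77%.

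The libraries of both conditions overlapped in the share of domains with a peak after RNH treatment. A peak was found after RNH treatment in 14.3 ± 3.41% of domains in untreated cells and in 11.2 ± 5.89% in dH1-depleted cells (mean ± SD, n = 2 libraries each). The difference was -3.07 percentage points (exact permutation test, 2-sided, p = 0.667, where 0.333 is the smallest that the design allows). Domains had to hold peaks of untreated cells, while peaks of dH1-depleted cells were allowed but not required. This comparison was thus made on regions for which peaks of only 1 of the conditions were required. The lists of both conditions entered the merging that set the width. In the 106 wide regions outside the rule, a peak was found after RNH treatment in 8.49% and 4.72% in untreated replicates 1 and 2, and in 12.3% and 7.55% in dH1-depleted replicates 1 and 2. The difference in domains depended on dH1-depleted replicate 1, as without this library the difference was 1.10 percentage points, and on a single series of domains described below. Covered length without RNH treatment had means of 57.3% in dH1-depleted and 88.8% in untreated cells, a difference of -31.5 percentage points. Its direction is partly set by the rule, which requires untreated peaks only, so it is not a result about the conditions. Without dH1-depleted replicate 1, the difference was -2.65 percentage points, and without dH1-depleted replicate 2 it was -60.4.

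The domains with a peak after RNH treatment were shared only in part between replicates. In untreated cells, 46 domains had one in either replicate and 19 in both, which is 50% of those of replicate 1 and 70.4% of those of replicate 2. In dH1-depleted cells, 46 had one in either replicate and 5 in both, which is 31.2% of those of replicate 1 and 14.3% of those of replicate 2. Over the 4 lists, 156 domains had no peak after RNH treatment, 45 had a peak in 1 list, 15 in 2, 7 in 3 and 5 in all 4. The 72 domains with a peak in any list had a median width of 4438 bp, respect to 4197 bp for the 156 without. The 72 domains also had the same median number of narrow peaks, 2. They ranked higher in 3 lists without RNH treatment, with median percentiles of 87.9 respect to 81.8 in untreated replicate 1, 86.0 respect to 75.9 in dH1-depleted replicate 1 and 96.9 respect to 87.1 in its replicate 2. In untreated replicate 2 the medians were 82.2 and 83.1. The share of domains with a peak in any list was 22.0% under 4000 bp and 47.6% of those wider but under 5000 bp. It was 20% of those wider still but under 7000 bp and 38.5% at 7000 bp or more. Of the 72 domains, 21 belonged to a series on 2L described below. Domains of this series had a median width of 4403 bp and percentiles between 98.8 and 99.9 in dH1-depleted replicate 2. The medians given here were not computed without the series, and no test was made.

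The 5 domains with a peak in all 4 RNH-treated lists included 2 named above, that of 3R at 26899625 and that of 2R at 2234076. Another lay on 3L (24456521 to 24464544), and X held 2, the high-ranking one at 2683158 and one further along (5791804 to 5795330). In the domain of 3L, peaks after RNH treatment covered 99.5% and 98.8% of its 8024 bp in untreated replicates 1 and 2, and 99.6% and 99.3% in dH1-depleted replicates 1 and 2. In that of 3R, they covered from 88.5% to 89.0% in the 4 lists. In these 5 domains, coverage was 88.5% or more in every RNH-treated list. Their narrow peaks differed, as dH1-depleted replicate 1 without RNH treatment covered 86.0% of the domain of 3L, but 13.5% of that of 3R and 6.75% of the domain at 5791804 on X.

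A series of domains stood out by its position. On 2L, from 21416296 to 21539932, 23 domains followed each other in 123637 bp, with starts at a median spacing of 5036.5 bp. Of the 22 spacings, 21 were from 4740 bp to 5438 bp, and the other was 14047 bp. The domains were alike in width, from 3911 bp to 4498 bp with a median of 4403 bp. No other stretch of the arms held 5 or more domains in a row with starts no more than 15000 bp apart. The series was picked after its values were seen, so it is described with no test.

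All 4 lists without RNH treatment had a peak in each of the 23 domains. In dH1-depleted replicate 2, every domain of the series was covered along its whole length by 1 peak, and its percentile was between 98.8 and 99.9. The median percentile of the series was 89.2 and 88.4 in untreated replicates 1 and 2, with lowest values of 54.2 and 60.0, and 86.0 in dH1-depleted replicate 1, with a lowest value of 19.5. All 23 percentiles of dH1-depleted replicate 2 were above those of every other list. Each of the 23 domains held 1 to 3 narrow peaks of dH1-depleted replicate 1, with a median of 2, which covered 16.6% of the length. The 31 other domains of the same range of widths also had a median of 2, from 0 to 6, which covered 20.1%.

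After RNH treatment, a peak was left in 16 and 13 of the 23 domains in untreated replicates 1 and 2, but in 2 and 7 in dH1-depleted replicates 1 and 2. In the 205 other domains, these numbers were 22, 14, 14 and 28, or 10.7%, 6.83%, 6.83% and 13.7%. In the series, 21 of 23 domains had a peak in at least 1 RNH-treated list, and the series gave 13 of the 27 domains with a peak in 2 or more. Length covered after RNH treatment was 49.6% and 40.9% in untreated cells, and 6.70% and 21.6% in dH1-depleted replicates 1 and 2. The other 31 domains of the same range of widths had 4.44%, 3.12%, 8.58% and 6.48%. In the series, both untreated values were above both dH1-depleted ones, and without the series the difference between conditions in domains with a peak turned to 1.46 percentage points.

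Whether these domains are copies of a repeated sequence, which would share reads, was not tested, and they are not taken as independent measurements. The histone genes of *Drosophila*, including the *His1* genes that encode dH1, lie in a tandem array on 2L. In the gene table at hand, of assembly Release 6, 23 *His1*, 23 *His2B*, 23 *His3*, 22 *His4* and 20 *His2A* genes were all on 2L. Positions of that assembly were not compared with those of dm3, and no gene was assigned to the series.

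**Figure D5:**
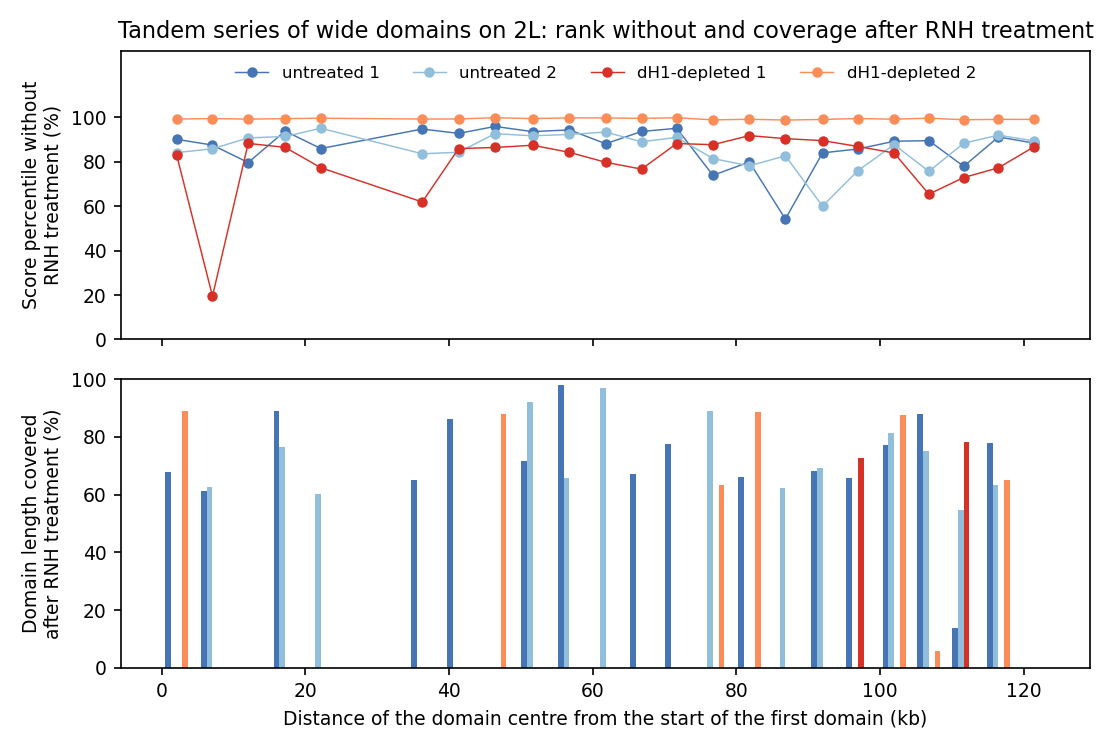
Score percentile without RNH treatment (top, percent) and percent of the domain length covered by peaks after RNH treatment (bottom, bars from 0) for the 23 domains of the series on 2L in 4 libraries (colours), against the distance of the domain centre from the start of the first domain (kb). The points of dH1-depleted replicate 2 lie between 98.8 and 99.9 at the top, and a bar of untreated cells is present in most domains at the bottom.

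Of the 20 domains of shared layout, 8 had a peak in 1 RNH-treated list and 0 had a peak in 2 or more. A peak in any RNH-treated list was thus found in 40% of them, respect to 31.6% of all 228 domains and 3.89% of all arm regions. Among domains of like width, the share was 38.5% of the 39 domains of 7000 bp or more. It was 20% of the 35 domains from 5000 bp to under 7000 bp. In the group of 7, untreated replicates 1 and 2 had a peak in 2 domains each, and neither dH1-depleted list had any. These values were not tested, because the groups were formed after the data were seen.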

How the data were processed

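DRIP-seq was performed in S2 cells, with 12 libraries, of which 8 peak lists were used and the inputs entered only through them. The authors used Bowtie 0.12.5 for alignment on dm3, with 2 seed mismatches allowed and up to 10000 sites kept per read. Duplicates were removed (sambamba v0.5.1), and each library was called by itself with MACS 1.4 at a p-value of 1e-05. The deposited score is -10 times log10 of the p-value, at least 50, and grows with depth, which is unknown. Deposited positions are peak starts and ends in bp.

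Peaks were merged with an overlap of 1 bp. Members, lists and groups were chosen with earlier results of these data known. Regions named were the 2 widest of each arm, the 5 of highest lowest percentile, the 5 with most narrow peaks, up to 10 with peaks in 2 or more RNH-treated lists and 3 on either side of the width minimum. The series and the layout groups were added after seeing the values. Conditions were compared over libraries with exact permutation tests (2-sided), and domains with narrower regions with an exact sign-flip test. Replicate numbers come from the labels. The main comparisons used no replicate block, since the peak comparison of the study names none. Differences between replicates had a correlation between conditions of 0.02 without and 0.08 after RNH treatment over 1798 regions. Few of these regions had a peak after RNH treatment, and dH1-depleted replicate 1 differed in form without it. These correlations therefore cannot show that libraries of the same number share no batch.

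Alternatives were other width minimums, merging only the untreated lists, a score of 100 and above, other overlap and ranking rules, and leaving out each library. The calculations used Python 3.11.15, NumPy 2.4.6, SciPy 1.17.1, pandas 2.3.3 and matplotlib 3.10.9. They were run on simulated data, where all 200 domains among 1200 regions were recovered, with 0 false ones and the simulated number of narrow peaks. No simulated region was close to the width minimum, and the simulated narrow peaks were evenly spaced. The simulation therefore checks the code only, not how well domains are found in the real lists. Sequences, genes and repeats under the domains were not analysed here.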

Additional observations from a re-analysis of the deposited data

How the results depend on the processing

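The number of domains was 354 with a minimum of 2500 bp and 137 with 4000 bp, respect to 228, and from 187 to 243 when each library was left out. Where an untreated library was left out, the rule required a peak in the other untreated list only. This holds for the number of domains and for the share given next. The share of domains with 2 or more narrow peaks, 57.0%, was 42.4% with 2500 bp, 73.0% with 4000 bp, 28.9% with scores of 100 and above and 49.1% when narrow peaks closer than 500 bp were joined, and from 59.3% to 62.6% without each other library. The difference between conditions in domains with a peak after RNH treatment, -3.07 percentage points, became 1.46 without the series on 2L, an alternative chosen after seeing the data, and from -7.24 to 1.10 without each library. With the replicate block it was again -3.07, made of -9.65 for number 1 and 3.51 for number 2 (exact sign-flip test, p = 1). With the replicate block, the difference in length covered without RNH treatment was -31.5, made of -62.1 and -0.914, and it was from -60.4 to -2.65 without each library. The mean percentile of untreated libraries, 83.7, was 89.6 when only arm peaks were ranked. The excess of length covered after RNH treatment in domains was positive under each alternative tried, from 7.42 to 9.41 percentage points without each library, 6.82 without the series on 2L and 4.98 with scores of 100 and above. Its p cannot fall under 0.13, and no alternative matched domains and narrower regions by rank. Depth is unknown, so a missing peak does not show a missing hybrid, and with 2 libraries per condition only differences far above their spread could be seen.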
